A study of Mus musculus with 4 samples.

Results

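Heat shock proteins and their partner chaperones are described here in alveolar epithelial type II (AT2) cells, which make lung surfactant. The 10 genes Hspa1a, Hspa1b, Hspa8, Hsp90aa1, Hsp90ab1, Dnajb1, Hsph1, Hspd1, Hspe1 and Hspb1 were chosen by symbol from a table of 22565 protein-coding genes, and each matched 1 row. Of the 10, 8 encode mainly cytosolic proteins, and Hspd1 and Hspe1 encode the chaperonin of the mitochondrial matrix, so the group is not cytosolic alone. All 10 passed the filter on low values (1 FPKM, fragments per kilobase of transcript scaled to library size, in at least 2 libraries).

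Total RNA came from untreated primary AT2 cells, isolated by flow cytometry from 6-month-old mice, in 2 wild-type (WT) libraries and 2 libraries labelled KO. The growth protocol writes Fbxo45-cKO for the mutant mice. The genotype field reads Fbxo45 knockout for KO replicate 1 and Fbxo46 knockout for KO replicate 2. The deleted part of the gene, the Cre driver and the number of animals behind a library were not given in the sources used here. What each p-value weighs is therefore the spread of 4 libraries, which could be technical.

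Chaperones bind unfolded or newly made proteins and keep them from clumping. Hsp70 proteins are loaded with clients by J-domain proteins such as Dnajb1 and are reset by nucleotide exchange factors such as Hsph1, and Hsp90 takes many of their clients further, while small heat shock proteins such as Hspb1 hold unfolded proteins without ATP. Under stress the transcription factor HSF1 binds heat shock elements, inverted repeats of the unit GAA, and raises many of these genes, above all Hspa1a and Hspa1b, whereas Hspa8 and Hsp90ab1 are made at high level in resting cells.

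The 4 libraries held 4167114 and 8200179 recovered fragments in WT and 9507434 and 7066424 in KO replicates 1 and 2. Fbxo45 was at 4.60 and 5.91 FPKM across WT, against 4.41 and 7.58 FPKM in the KO-labelled libraries, so the gene named in the title did not tell KO-labelled from WT libraries, and values per gene do not resolve a deleted exon. All 12 AT2 markers examined were above 1 FPKM in every library. They summed to 135236 and 129208 FPKM in WT and to 85504.9 and 121971 FPKM in KO replicates 1 and 2. Sftpc alone held most of each sum. Its FPKM was 101544 (WT replicate 1), 94983.8 (WT replicate 2), 54457.7 (KO replicate 1) and 87684.1 (KO replicate 2). The sums therefore say little of the other AT2 markers. Marker by marker, limma had 6 of the 12 higher and 6 lower in KO-labelled libraries, while edgeR had 3 higher and 9 lower. KO replicate 1 stood apart: 11 skeletal muscle markers summed to 1266 FPKM there, with all 11 above 1 FPKM, and to 0.544, 10.5 and 9.84 FPKM in WT replicates 1 and 2 and KO replicate 2, where 9, 1 and 1 of them were at 0. In bulk RNA, fewer cells of a type and less RNA per cell cannot be told apart. Each member is therefore given with and without KO replicate 1.

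Upstream sequence was in the RefSeq table (build GRCm38.p6) for 7 of the 10 genes, in 10 windows since Dnajb1, Hspd1 and Hsph1 have a pair of starts each. The 250 bases before each start were searched on both strands for heat shock elements of 2 units, GAANNTTC and TTCNNGAA, each its own reverse complement, and for the 3-unit element, in which the former runs into the latter with the middle TTC shared. The stretches that hold the matches are shown so that the genes with a match can be compared. Bases run 5′ to 3′ on the strand of the named gene, and capitals mark the 2-unit matches.
Hspe1: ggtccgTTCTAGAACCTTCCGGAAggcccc
Hsph1: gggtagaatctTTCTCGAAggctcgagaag
Hspa1a: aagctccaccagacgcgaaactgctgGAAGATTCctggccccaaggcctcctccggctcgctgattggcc
Hspa1b: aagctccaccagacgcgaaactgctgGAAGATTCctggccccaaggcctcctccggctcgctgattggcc
Hspb1: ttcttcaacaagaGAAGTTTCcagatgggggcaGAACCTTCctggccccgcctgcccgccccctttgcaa

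The Hspe1 stretch (chr1:55088053-55088082, plus strand) holds overlapping matches that include the 3-unit element, from 89 to 72 bases before the Hspe1 start. Hspd1 lies head to head with Hspe1, and the same bases stand 144 to 127 before 1 of the Hspd1 starts, inside an exon of another Hspd1 transcript in GENCODE M21. The Hsph1 stretch (chr5:149636351-149636380, minus strand) has its match 33 to 26 bases before the upstream start, and 26 of its 30 bases are in a GENCODE M21 exon of Hsph1. The stretches of Hspa1a (chr17:34972217-34972286, minus strand), Hspa1b (chr17:34959299-34959368, minus strand) and Hspb1 (chr5:135887789-135887858, plus strand) overlap no annotated exon. Hspa1a and Hspa1b are the same over the stretch shown and differ at 3 of the 250 bases searched. A 2-unit match was found in 7 of the 10 windows, which cover 6 of the 7 genes, against 12.8% of all 32851 windows in the table. Some of these windows repeat a site: both Hsph1 windows hold the same match, and the Hspe1 window shares its bases with 1 Hspd1 window. The 3-unit element was found in the Hspe1 window and in 1 of the Hspd1 windows, against 0.466% of all windows. Neither Dnajb1 window held these letters, which says nothing of sites elsewhere.

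**Figure D1:**
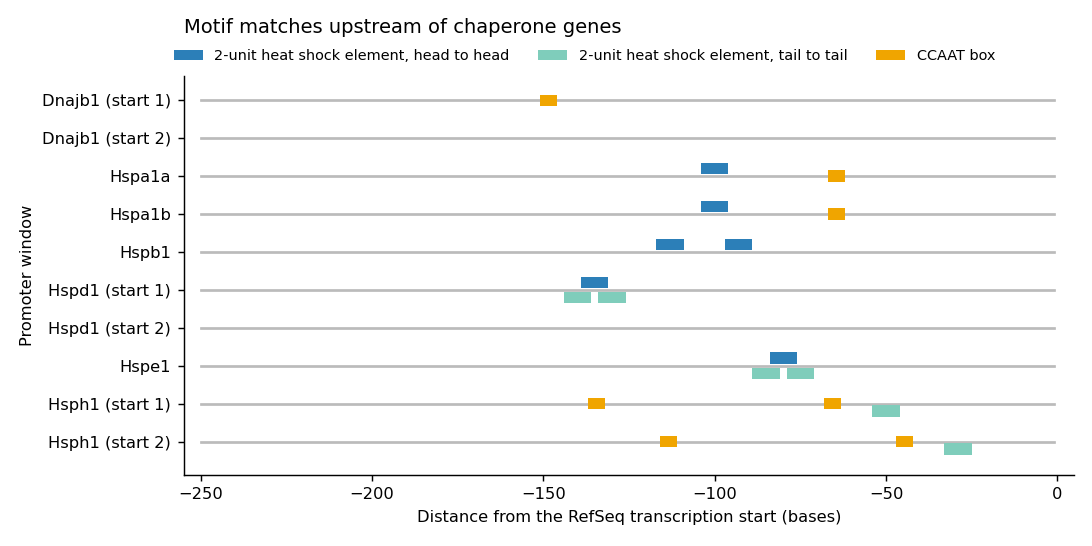
Motif matches in the 250 bases before each RefSeq start of the 7 genes with a window (x axis, distance from the start in bases; 1 line per window). Blue and green bars are 2-unit heat shock elements of either orientation and orange bars are CCAAT boxes on either strand; 7 of the 10 windows hold a heat shock element match and the Dnajb1 windows hold none.

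No member passed the comparison of KO-labelled with WT libraries, and the 2 KO-labelled libraries were unlike each other. Summed over the 10 genes, the members took 1589 and 1676 CPM (recovered fragments scaled to an equal total per library, with no length term) in WT, 3574 CPM in KO replicate 1 and 1514 CPM in KO replicate 2. The exact (Clopper-Pearson) 95% intervals, which cover counting error only, were 1551 to 1628 and 1649 to 1705 CPM in WT, 3537 to 3613 CPM in KO replicate 1 and 1486 to 1543 CPM in KO replicate 2. By this sum KO replicate 1 was above the other 3 libraries, and KO replicate 2 was below both WT libraries. Hspa8, Hsp90aa1 and Hsp90ab1 made up most of the sum, at 1569, 730.2 and 930.5 CPM in KO replicate 1. Taken singly by CPM, KO replicate 2 was above both WT libraries for Hsp90aa1, Dnajb1, Hspd1 and Hspe1. It was below both for Hspa8, Hspa1a, Hspa1b, Hsph1 and Hsp90ab1, and between them for Hspb1. Of the 10 genes, KO replicate 1 was the highest library for 9 by CPM, where 33.2% of 11055 tested genes had it highest, and for 8 by FPKM, where 30.4% did.

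limma on log2(FPKM + 1) called 0 of 10 members and 0 of 11055 genes (0%) at an adjusted p under 0.05. Of the 10, 7 were higher and 3 lower in the KO-labelled libraries, beside 5984 of all 11055 genes higher. The median log2 difference of the 10 was 0.57 beside 0.035 over all tested genes. By limma 1 member had an unadjusted p under 0.05, as did 4.84% of all genes. edgeR's quasi-likelihood test on the recovered fragments also called 0 of 10 members and 0 of 11705 genes (0%), with 1 member at an unadjusted p under 0.05 (3.18% of all genes), and DESeq2 called 0 members (0.0457% of all genes), with 3 at an unadjusted p under 0.05 (1.82% of all genes). Without KO replicate 1, 4 of the 10 were higher and 6 lower, and limma and edgeR each called 0 members (0% and 7.63% of all genes), with 0 and 1 at an unadjusted p under 0.05 (19.2% and 24.8% of all genes). Without KO replicate 2, limma called 3 members, all higher (1.21% of all genes were called, 0.651% higher), and edgeR called 7, all higher (13.0%, 6.67% higher). Each of these fits has 1 library in the KO group, whose spread is taken from the WT pair, so they compare libraries rather than genotypes.

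**Figure D2:**
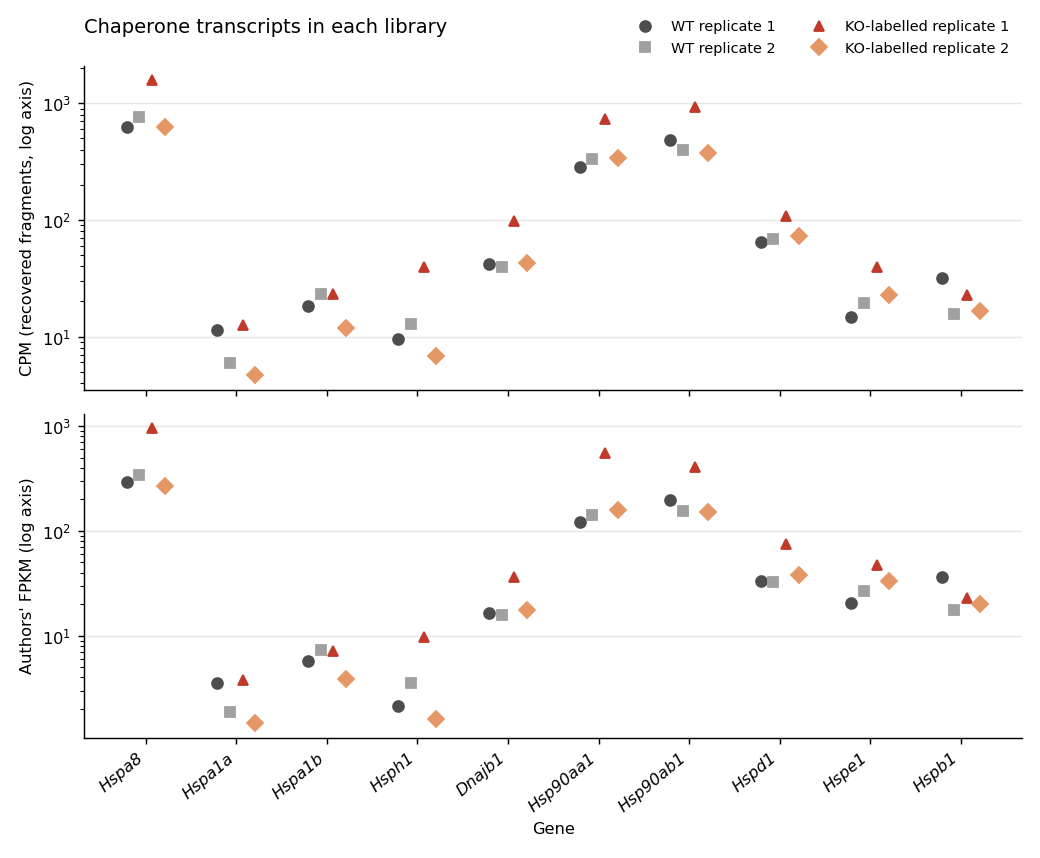
Level of the 10 chaperone genes in each of the 4 libraries (points; grey WT, red and orange KO-labelled), in CPM from recovered fragments above and in the authors' FPKM below, both on log axes. KO replicate 1 (red triangles) is the highest library for 9 genes by CPM and 8 by FPKM; KO replicate 2 lies between 0.541 and 1.33 times the WT mean by CPM.

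Among the Hsp70 members, the constitutive Hspa8 was far more abundant than Hspa1a and Hspa1b in every library. Hspa8 (ENSMUSG00000015656, chromosome 9, 40800984 to 40810087, plus strand), the cognate Hsp70 that also strips clathrin from vesicles, measured 290.2 and 338.8 FPKM across WT, against 950.4 in KO replicate 1 and 268.6 FPKM in the other KO-labelled library. The same gene took 623.9, 764.0, 1569 and 620.4 CPM in that order. KO replicate 1 was thus 3.02 times the WT mean by FPKM and 2.26 times by CPM, and KO replicate 2 was just below both WT values. The KO-labelled libraries lay on either side of WT, so the groups overlapped, and the log2 difference of 0.69 (SE 0.566, limma adjusted p = 0.948) was smaller than the spread between them. It was -0.22 without KO replicate 1 (limma adjusted p = 0.415) and 1.60 without KO replicate 2 (limma adjusted p = 0.0248).

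For the stress-inducible Hspa1a and Hspa1b, KO replicate 1 was also the highest library by CPM and KO replicate 2 the lowest, but KO replicate 1 was only 1.45 and 1.13 times the WT mean. Hspa1a (ENSMUSG00000091971, chromosome 17, 34969190 to 34972156, minus strand) measured 3.57 and 1.85 FPKM across WT, against 3.74 and 1.47 FPKM in KO replicates 1 and 2. Hspa1b (ENSMUSG00000090877, chromosome 17, 34956436 to 34959238, minus strand) measured 5.74 and 7.28 FPKM across WT, against 7.11 and 3.86 FPKM in KO replicates 1 and 2. For both genes KO replicate 1 was at or near the upper WT value and KO replicate 2 was below both. The genes share sequence: 48.5% of the 100-base stretches of Hspa1a and 49.9% of those of Hspa1b occur in transcripts of another gene, nearly all in each other, so reads could be split between them and each is uncertain alone. KO minus WT came to -0.08 on the log2 scale for Hspa1a (SE 0.448, limma adjusted p = 0.988), -0.55 without KO replicate 1 and 0.39 without KO replicate 2. The same values for Hspa1b were -0.25 (SE 0.338, limma adjusted p = 0.968), -0.62 and 0.12. Neither gene passed in either reduced fit, with limma adjusted p from 0.279 to 0.814.

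Their sum does not depend on that split. Together they stood at 29.5 and 29.1 CPM in WT, 35.9 CPM in KO replicate 1 and 16.4 CPM in KO replicate 2, from 123, 239, 341 and 116 fragments. The WT libraries were nearly level, KO replicate 1 was 1.22 times their mean and KO replicate 2 was 0.56 times it. The log2 difference of the summed FPKM was -0.24 (SE 0.35, limma adjusted p = 0.969). Without KO replicate 1 it was -0.69 (limma adjusted p = 0.206), and edgeR, where it was -0.82, gave an adjusted p of 0.0395, with 7.63% of all genes called. Without KO replicate 2 it was 0.21 (limma adjusted p = 0.561). Fragments of Hspa8 outnumbered those of the pair by 21.1 and 26.2 times in WT, by 43.7 times in KO replicate 1 and by 37.8 times in KO replicate 2.

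The partners of Hsp70 also differed between the KO-labelled libraries. Hsph1 (ENSMUSG00000029657, chromosome 5, 149614287 to 149636376, minus strand), an Hsp110 protein that acts as an exchange factor and helps dissolve aggregates, measured 2.14 and 3.56 FPKM across WT, against 9.74 in KO replicate 1 and 1.61 FPKM in the other KO-labelled library. By CPM it was at 9.60, 12.8, 39.7 and 6.79, from 40, 105, 377 and 48 fragments. At 3.54 times the WT mean by CPM this was the widest ratio of KO replicate 1 to WT among the 10, and KO replicate 2 was 0.606 times the mean, below both WT libraries. KO minus WT came to 0.49 on the log2 scale (SE 0.672, limma adjusted p = 0.969). It was -0.53 without KO replicate 1 (limma adjusted p = 0.472) and 1.51 without KO replicate 2 (limma adjusted p = 0.092, edgeR 8.67e-05).

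Dnajb1 (ENSMUSG00000005483, chromosome 8, 83608193 to 83612653, plus strand), the J-domain protein that stimulates the Hsp70 ATPase, measured 16.7 and 15.7 FPKM across WT, against 36.1 and 17.7 FPKM in KO replicates 1 and 2. Its CPM values were 42.0, 39.6, 97.8 and 42.7. Both KO-labelled values were above both WT values, KO replicate 1 by a wide margin and KO replicate 2 by a narrow one. KO minus WT came to 0.62 on the log2 scale (SE 0.352, limma adjusted p = 0.948). It was 0.13 without KO replicate 1 (limma adjusted p = 0.706) and 1.11 without KO replicate 2 (limma adjusted p = 0.0534, edgeR 2.93e-05). Neither Hsph1 nor Dnajb1 shared a 100-base stretch with another gene.

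The cytosolic Hsp90 genes were high in every library. Hsp90aa1 (ENSMUSG00000021270, chromosome 12, 110690605 to 110702728, minus strand), the more stress-responsive form, measured 120.6 and 141.6 FPKM across WT, against 549.8 in KO replicate 1 and 159.0 FPKM in the other KO-labelled library. By CPM it was at 285.1, 330.8, 730.2 and 340.3. Both KO-labelled values were above both WT values, but KO replicate 2 exceeded the higher WT library by less than the WT libraries differed. Its log2 difference of 1.17 (SE 0.554, limma adjusted p = 0.948) was the largest of the 10 on the log2(FPKM + 1) scale. It was 0.28 without KO replicate 1 (limma adjusted p = 0.34) and 2.06 without KO replicate 2 (limma adjusted p = 0.0167).

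Hsp90ab1 (ENSMUSG00000023944, chromosome 17, 45567775 to 45573271, minus strand), the constitutive form, measured 196.4 and 154.1 FPKM across WT, against 411.2 and 152.5 FPKM in KO replicates 1 and 2. Its CPM values were 488.1, 396.8, 930.5 and 374.9. Here KO replicate 2 was below both WT libraries and KO replicate 1 was above both, so the groups overlapped. KO minus WT came to 0.52 on the log2 scale (SE 0.464, limma adjusted p = 0.948). It was -0.19 without KO replicate 1 (limma adjusted p = 0.576) and 1.24 without KO replicate 2 (limma adjusted p = 0.0524, edgeR 2.63e-05). Per length, in FPKM, Hsp90aa1 stood at 0.614 and 0.918 times Hsp90ab1 in WT, 1.34 times in KO replicate 1 and 1.04 times in KO replicate 2. By CPM the ratios were 0.584, 0.834, 0.785 and 0.908, so KO replicate 1 lay between the WT libraries on that scale and outside them on FPKM.

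The mitochondrial chaperonin genes were both highest in KO replicate 1. Hspd1 (ENSMUSG00000025980, chromosome 1, 55077835 to 55088243, minus strand), which encodes the Hsp60 ring, measured 33.1 and 32.6 FPKM across WT, against 75.0 and 37.9 FPKM in KO replicates 1 and 2. Hspe1 (ENSMUSG00000073676, chromosome 1, 55088132 to 55091307, plus strand), which encodes its Hsp10 lid, measured 20.6 and 26.8 FPKM across WT, against 47.0 and 33.6 FPKM in KO replicates 1 and 2. For both genes both KO-labelled values were above both WT values and KO replicate 1 was the higher of them. Across the 10 members both KO-labelled values lay above both WT values for 4 by FPKM (Hspd1, Hspe1, Dnajb1 and Hsp90aa1), where 20.0% of tested genes had it, and the reverse order held for 0, where 15.1% had it.

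By CPM, Hspd1 was at 64.6, 68.4, 109.0 and 73.4 and Hspe1 at 14.6, 19.3, 39.7 and 22.5. KO replicate 1 was 1.64 times the WT mean for Hspd1 and 2.34 times for Hspe1, and KO replicate 2 was 1.10 and 1.33 times. The log2 difference of Hspe1 was 0.73 (SE 0.26, limma unadjusted p = 0.0306, adjusted p = 0.948), the smallest unadjusted p of the 10. That of Hspd1 was 0.68 (SE 0.339, limma adjusted p = 0.948). Without KO replicate 1 they were 0.50 and 0.20 (limma adjusted p = 0.275 and 0.469), and without KO replicate 2 they were 0.97 and 1.17 (limma adjusted p = 0.0884 and 0.0418). The genes overlap head to head in GENCODE M21 and share 1 locus in the deposited table. The library kit marks strand, but the sources used here do not say whether the counting used it.

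The small heat shock protein gene Hspb1 was not highest in KO replicate 1. Hspb1 (ENSMUSG00000004951, chromosome 5, 135887919 to 135889563, plus strand), whose protein (Hsp25 in mice) also protects actin filaments, measured 36.7 and 17.7 FPKM across WT, against 22.8 and 20.2 FPKM in KO replicates 1 and 2. Both KO-labelled values lay between the WT values, which were the furthest apart of the 10 in ratio. KO minus WT was -0.24 on the log2 scale (SE 0.359, limma adjusted p = 0.970), -0.33 without KO replicate 1 (limma adjusted p = 0.694) and -0.16 without KO replicate 2 (limma adjusted p = 0.858). Of its 100-base stretches 49.1% occur in the processed pseudogene Hsp25-ps1, so Hspb1 is uncertain.

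**Figure D3:**
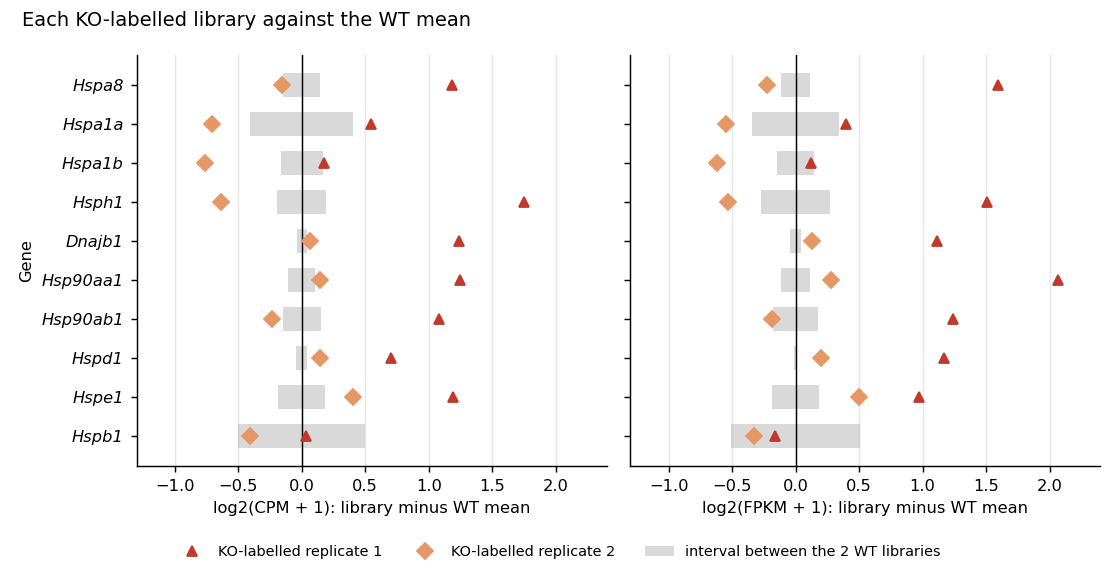
Each KO-labelled library minus the WT mean, on log2(CPM + 1) at left and log2(FPKM + 1) at right (points; red triangles KO replicate 1, orange diamonds KO replicate 2); the grey bar spans the 2 WT libraries. For 7 genes KO replicate 1 lies at 0.705 or more on both scales, and Hspa1a, Hspa1b and Hspb1 lie at 0.55 or less.

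By size, KO replicate 1 lay 0.705 or more above the WT mean on both log2 scales for Hspa8, Hsph1, Dnajb1, Hsp90aa1, Hsp90ab1, Hspd1 and Hspe1. It lay at 0.55 or less for Hspa1a, Hspa1b and Hspb1. The edgeR log2 difference without KO replicate 2 ran from 0.70 for Hspd1 to 1.79 for Hsph1 in the former and from -0.0096 for Hspb1 to 0.59 for Hspa1a in the latter. The sets were drawn after these values were seen and rest on 1 KO-labelled library. Whether the 2 sets differ from each other was not tested. Of the former, Hsph1, Hspd1 and Hspe1 have a heat shock element match in a window searched, Dnajb1 has none, and no window was searched for Hspa8, Hsp90aa1 and Hsp90ab1. Hspa1a, Hspa1b and Hspb1 each have a match.

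Which scale is used changed the size of the difference for some members. The number of fragments behind 1 unit of FPKM, relative to the library's median over tested genes, was 0.854, 0.837 and 0.807 for Hsp90aa1 in WT replicates 1 and 2 and KO replicate 2, and 0.492 in KO replicate 1. For Hspa8 it was 0.777, 0.807 and 0.871, against 0.612 in KO replicate 1, and for Hspd1 0.705, 0.751 and 0.731, against 0.538. In these 3 genes a fragment counted for more FPKM in KO replicate 1 than elsewhere: the value there was 0.591 (Hsp90aa1), 0.748 (Hspa8) and 0.739 (Hspd1) times the mean of the other 3 libraries. Over 11038 tested genes this ratio had a median of 1.09, with 5th and 95th percentiles of 0.646 and 1.36. Only Hsp90aa1 of the 10 was below the 5th percentile, at percentile 3.34. These 3 genes have 8, 10 and 3 transcripts in GENCODE M21 and share 45.1%, 45.2% and 24.97% of their 100-base stretches with other genes, chiefly the processed pseudogenes Gm12346, Gm15459 and Hspd1-ps3, so their levels are uncertain. The part of transcripts or shared sequence in these values was not tested.

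**Figure D4:**
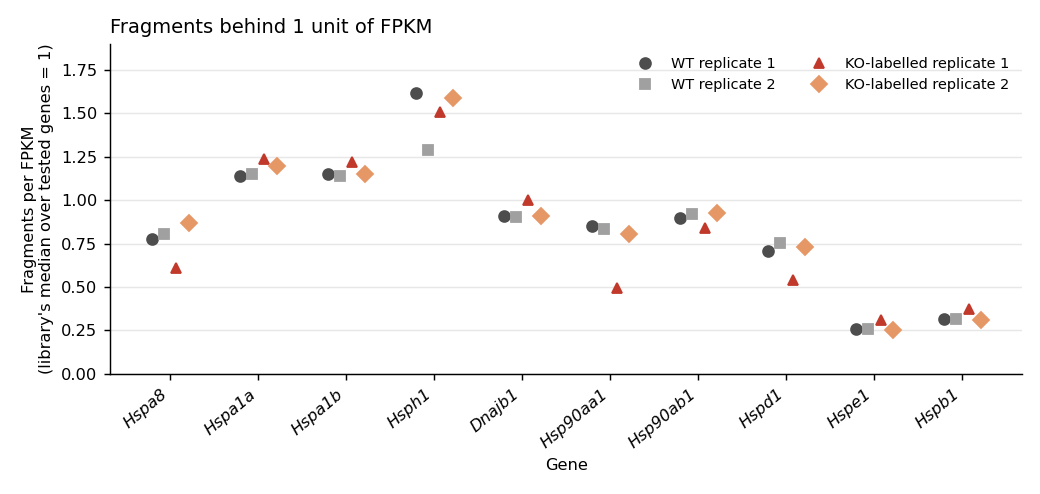
Recovered fragments per unit of FPKM for each member in each library (points), relative to the library's median over tested genes, on a linear axis from 0. KO replicate 1 (red triangles) is the lowest library for Hspa8, Hsp90aa1, Hsp90ab1 and Hspd1.

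The wider chaperone network was described with 9 further lists of 97 genes, of which 83 of the 97 matching rows were tested. Of these 83, 63 were higher and 20 lower in the KO-labelled libraries, beside 5984 of all 11055 tested genes higher. For the 83, limma called 0, and the median log2 difference was 0.23 beside 0.035 over all tested genes. With edgeR the median was 0.17 beside 0.012. Against the WT mean, on log2(CPM + 1), the median of the 83 stood at 0.29 for KO replicate 1 and at 0.083 for KO replicate 2, and that of the 10 members at 1.13 and -0.19. Over all tested genes it was 0.014 and -0.005. Without KO replicate 2 edgeR called 17 of 87 network genes higher and 2 lower, where 6.67% and 6.31% of all genes were called. Without KO replicate 1 it called 3 higher and 2 lower, where 3.46% and 4.17% were.

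Hsp90 cochaperones, which load clients onto Hsp90 or tune its ATPase, had a median of 0.55 above WT in KO replicate 1 on log2(CPM + 1) and of 0.37 on log2(FPKM + 1). Of 14 tested, 12 were highest in KO replicate 1 by CPM and 9 by FPKM, where 33.2% and 30.4% of all tested genes were. Fkbp4, a steroid receptor cochaperone, was at 178.5 and 175.2 CPM in WT, 260.2 CPM in KO replicate 1 and 131.9 CPM in KO replicate 2. Ptges3, the p23 cochaperone, was at 75.4 and 91.1 CPM in WT and at 99.6 and 97.6 CPM in the KO-labelled libraries. Ahsa1, the activator of the Hsp90 ATPase, chosen after its values were seen, was at 23.3 and 22.9 CPM in WT, 51.5 CPM in KO replicate 1 and 25.05 CPM in KO replicate 2. KO replicate 1 was 2.23 times the WT mean of Ahsa1 by CPM and 2.02 times by FPKM.

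J-domain proteins other than Dnajb1 had a median of 0.19 in KO replicate 1 and 0.12 in KO replicate 2 by CPM, and of 0.38 and 0.19 by FPKM. Of 25 tested, 11 were highest in KO replicate 1 by CPM and 17 by FPKM, beside 33.2% and 30.4% of all tested genes. Over both libraries 20 were higher by limma on FPKM, beside 5984 of all 11055 genes. By edgeR 17 were higher, beside 5628 of 10910 genes. Dnaja1, a cytosolic partner of Hspa8, was at 149.5 and 162.1 CPM in WT and at 180.5 and 165.0 CPM in KO replicates 1 and 2. Dnajb9, of the endoplasmic reticulum, was at 79.2 and 76.0 CPM in WT and at 88.7 and 110.2 CPM. Among exchange factors and other Hsp70 regulators, with medians of 0.15 and -0.05 by CPM, Bag1 was at 61.0 and 65.6 CPM in WT and at 92.5 and 59.4 CPM, and Bag6 at 175.7 and 155.9 CPM in WT and at 121.0 and 130.1 CPM. Bag6 was thus below both WT libraries in both KO-labelled libraries by CPM, but its limma log2 difference on FPKM was -0.026 (adjusted p = 0.99), beside -0.41 with edgeR (adjusted p = 0.999).

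Hspa5, Hspa9, Hsp90b1 and Trap1, whose proteins lie in organelles, had smaller ratios of KO replicate 1 to WT than Hspa8 or Hsp90aa1 by CPM. The ratio did not follow the compartment, since the mitochondrial Hspe1 was at 2.34 times the WT mean. Hspa4 and Hspa4l, cytosolic relatives of Hsp70 chosen after their values were seen, were at 1.10 and 1.19 times. Hspa5, the Hsp70 of the endoplasmic reticulum, was at 466.5 and 510.1 CPM in WT and at 670.5 and 588.0 CPM in KO replicates 1 and 2. Hspa9, its mitochondrial counterpart, was at 128.1 and 143.9 CPM in WT and at 177.4 and 130.1 CPM. KO replicate 1 was 1.37 and 1.30 times the WT mean, against 2.26 times for the cytosolic Hspa8, a difference between genes that was not tested. Of the Hsp90 proteins in organelles, Hsp90b1, in the endoplasmic reticulum, was at 483.8 and 581.3 CPM in WT and at 674.7 and 699.2 CPM. Trap1, in mitochondria, was at 81.6 and 83.5 CPM in WT and at 87.2 and 77.7 CPM.

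The CCT chaperonin, which folds actin and tubulin, was higher in the KO-labelled libraries for 8 of 8 tested subunits, of which limma called 0. Over all 11055 tested genes 5984 were higher. The median limma log2 difference of the subunits was 0.26, and all 8 kept that direction under each other scaling and tool run on all 4 libraries. Both KO-labelled values were above both WT values for 5 of the 8 by CPM, as in 16.4% of tested genes. Without KO replicate 1 the log2 difference of Cct5 was -0.11 with limma and -0.15 with edgeR. Without KO replicate 2 limma called 2 of them, Cct5 and Cct8, beside 1.21% of all genes. Cct8, chosen after its values were seen, was at 46.1 and 55.5 CPM in WT and at 64.6 and 62.0 CPM in KO replicates 1 and 2. For Cct8 KO replicate 1 was 2.56 times the WT mean by FPKM but 1.27 times by CPM, and edgeR without KO replicate 2 did not call it (adjusted p = 0.211). Cct5 was at 83.8 and 79.5 CPM in WT and at 134.0 and 73.0 CPM in KO replicates 1 and 2. Tcp1, another subunit, was at 113.5 and 130.1 CPM in WT and at 128.4 and 139.2 CPM. Prefoldin, which hands chains to CCT, had 5 tested subunits with medians of 0.31 and 0.23: Pfdn5 was at 49.0 and 53.9 CPM in WT and at 81.2 and 30.6 CPM, and Pfdn2 at 20.2 and 24.9 CPM in WT and at 28.1 and 26.9 CPM.

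Small heat shock proteins other than Hspb1 include several that muscle is known to make in large amounts. KO replicate 1 was the highest library for 5 of 5 tested genes by CPM and for 3 by FPKM. Over all tested genes it was highest for 33.2% and 30.4%. The part of muscle RNA in these values was not tested. Over both KO-labelled libraries 2 of the 5 were higher by limma on FPKM (median log2 difference -0.07) and 4 by edgeR (0.52). Hspb8, which works with Bag3 to clear damaged proteins, was at 51.6 and 44.4 CPM in WT and at 82.4 and 55.8 CPM in KO replicates 1 and 2. Cryab, alpha-B crystallin, was at 19.0 and 18.9 CPM in WT and at 31.2 and 10.8 CPM. Hspb7, a muscle form that was below the filter and was chosen after its values were seen, had 2 and 0 fragments in WT, 36 in KO replicate 1 and 3 in KO replicate 2.

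Heat shock factors and their regulators had a median below WT in both KO-labelled libraries. In 3 of 4 tested genes every KO-labelled value was under every WT value by CPM, as in 17.1% of tested genes. In the other 1 every KO-labelled value was above every WT value, as in 16.4% of tested genes. Hsf1, the main stress-responsive factor, was at 26.4 and 26.3 CPM in WT and at 22.5 and 16.3 CPM in KO replicates 1 and 2. Hsbp1, which binds HSF1 and limits it, was at 45.1 and 46.6 CPM in WT and at 42.2 and 29.7 CPM. Neither passed the test: the limma log2 differences were -0.44 and -0.40, each with an adjusted p of 0.948.

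**Figure D5:**
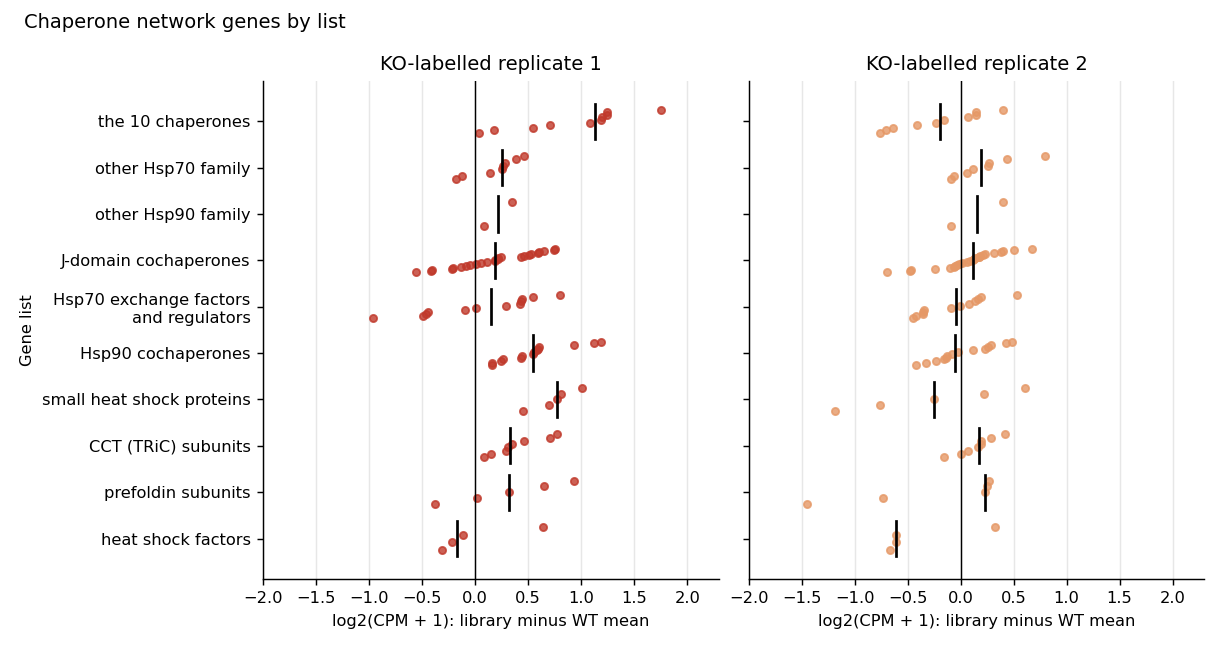
Tested genes of each chaperone list (points) in KO replicate 1 at left and KO replicate 2 at right, as log2(CPM + 1) minus the WT mean; black bars are medians. The 10 chaperones have a median of 1.13 in KO replicate 1 (left) and of -0.19 in KO replicate 2 (right), and the heat shock factors are the list with a median below 0 in both.

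Some other measures were also highest in KO replicate 1, and the part of any of them in the chaperone values was not tested. The summed muscle markers took 1916 CPM there and at most 10.4 CPM in the other libraries, while the summed members took 3574 CPM there and at most 1676 CPM elsewhere. AT1 cell markers summed to 956.6 FPKM in KO replicate 1 and to between 614.2 and 747.3 FPKM in the other 3. The AT1 markers did not move as a set: 7 of 8 were above 1 FPKM in KO replicate 1 and 8 of 8 in each other library. Over both KO-labelled libraries 4 of the 8 were higher and 4 lower by limma, and 2 were higher and 6 lower by edgeR. Macrophage markers summed to 14.02 FPKM in KO replicate 1 and to at most 8.16 FPKM elsewhere, and endothelial markers to 2.199 FPKM there and to 1.25, 0.545 and 0.829 FPKM in the others. These sums were low: 1 of 7 macrophage markers and 0 of 6 endothelial markers were above 1 FPKM in each library. Fibroblast and smooth muscle markers summed to 40.8 FPKM in KO replicate 1, beside 39.5, 15.8 and 37.2 FPKM in the others. Club cell markers summed to 1149 FPKM there, within the 825.2 to 1340 FPKM of the others. The order changed by CPM for both lists. Fibroblast and smooth muscle markers summed to 205.0 CPM in KO replicate 1, under the 208.3 CPM of WT replicate 1. Club cell markers summed to 665.4 CPM in KO replicate 1, above the 650.8, 439.9 and 406.4 CPM of the others. Immediate early genes, which cell handling is known to raise, summed to 672.9 and 436.7 FPKM in WT. In KO replicates 1 and 2 they summed to 609.0 and 470.3 FPKM, so both lay between the WT libraries. Single genes did not all follow the sum. Egr1 was highest in KO replicate 1 on both scales (56.8 FPKM and 209.6 CPM), with WT replicate 1 next (42.0 FPKM and 161.0 CPM). Fos was highest there by FPKM (100.9, WT replicate 1 86.0) but not by CPM (160.8, WT replicate 1 178.5). Over both KO-labelled libraries limma had 6 of 11 tested genes of this list higher and 5 lower.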

How the data were processed

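RNA of AT2 cells was measured in 2 WT and 2 KO-labelled libraries, grouped by sample title. Per the labels' protocols, rRNA-depleted total RNA went into stranded libraries. Build mm10, HISAT2 2.0.4, Cufflinks, Cuffdiff 2.2.1 and cutadapt 1.9.3 appear in the submitters' processing notes, while settings and annotation release were not given in the sources used here. Per the file headers, the deposited table holds FPKM and counts. The deposited counts are estimated counts: within a library they step by 1 constant, and division by this step made 91.0% to 92.6% of positive values whole within 0.05. These recovered fragments were rounded and gave CPM. A count of 0 allows up to 0.72 CPM in the shallowest library and 0.316 CPM in the deepest (3 fragments), for counting error only.

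KO-labelled and WT libraries were compared on log2(FPKM + 1) with limma-trend under R 4.3.3 (limma 3.58.1), with no covariate and Benjamini-Hochberg adjustment over 11055 genes with 1 FPKM in at least 2 libraries; such differences understate changes of low genes. edgeR 4.0.16 (quasi-likelihood, TMM, 11705 genes) and DESeq2 1.42.0 were run on recovered fragments, and other scalings, filters and left-out libraries as alternatives; edgeR without single libraries or with a replicate block was added after the data were seen. The procedure was tested on simulated data in which both KO libraries carried the same change. That test does not cover a single library that departs from the rest. The members and lists were chosen with earlier results of these data known. Named network genes are the 2 of each list with the highest mean FPKM plus Hsf1, Cryab and Hspb8, and others are said to be chosen after their values were seen. Of the listed genes, Pfdn6 and the macrophage marker Chil3 matched no row, and Hspa14 has 2 rows, both counted. Gene positions and shared 100-base stretches (1 in 4 sampled) are from GENCODE M21 (GRCm38, also called mm10), and upstream sequences from RefSeq, GRCm38.p6.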

Additional observations from a re-analysis of the deposited data

How the results depend on the processing

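With no gene called by limma, the count of calls moved as follows: edgeR without a filter called 5 genes, DESeq2 7 and edgeR with a replicate block 2, and none of these was a member. Leaving out single libraries gave 0 to 1520 genes and 0 to 7 members called over limma and edgeR, with the 7 members called without KO replicate 2 alone. Over all other settings, 10 of 317 log2 differences of named genes changed sign and none crossed the threshold. Hspa1a became 0.022 (edgeR with TMM), 0.030 (edgeR with library totals), 0.024 (edgeR, no filter) and 0.012 (DESeq2). Cryab became 0.147, 0.160, 0.149 and 0.148 in the same order. Bag6 became 0.029 at equal library totals, and Pfdn5 became -0.047 with the edgeR replicate block. The cause was not tested.

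With single libraries left out, log2 differences that changed sign ranged, over limma and edgeR, from -0.82 to 0.59 for Hspa1a, from -0.82 to 0.15 for Hspa1b, from -0.82 to 0.28 for their sum, from -0.22 to 1.60 for Hspa8, from -0.22 to 1.24 for Hsp90ab1, from -0.73 to 1.79 for Hsph1 and from -0.75 to 0.32 for Hspb1. The same ranges were -0.058 to 0.38 for Hspa9, -0.083 to 0.071 for Trap1, -0.47 to 0.055 for Bag6, -0.083 to 0.54 for Bag1, -0.41 to 0.64 for Fkbp4, -0.80 to 0.72 for Cryab, -0.15 to 1.04 for Cct5 and -0.74 to 0.92 for Pfdn5. Hsp90aa1, Dnajb1, Hspd1 and Hspe1 kept their direction in every setting run.

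The replicate block gave 0 genes and 0 members with limma. The labels do not say that equal numbers mark a pair, and over 11055 genes the difference between WT replicates had a correlation of 0.0257 with that between KO replicates. With 2 libraries a group, a count of 0 allows up to 0.72 CPM in the shallowest library, and each member had at least 33 fragments in every library.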
